A study of Mus musculus with 7 samples.

Results

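The 34 genes described here encode collagen chains mostly outside the cartilage types, although Col10a1 encodes a collagen of hypertrophic cartilage. They were taken by gene symbol from a deposited table of 38579 gene entries, each symbol matching a single row. They were grouped by the class of collagen they build: 8 fibrillar, 9 basement membrane, 4 type VI, 3 network, 5 FACIT (fibril-associated collagens with interrupted triple helices), 4 transmembrane chains and Col28a1, which stands alone. RNA was sequenced from freshly sorted, uncultured mammary cells of CD1 mouse fetuses at E17.5, late in gestation, in 7 libraries. The study set side by side 2 ways of sorting fetal mammary stem cells (fMaSC, an epithelial fraction enriched for them) and the stroma around them. The CD24 sort gave 2 libraries of lineage-negative CD24+CD49f+ fMaSC and 2 of lineage-negative CD24low stroma. The reporter sort gave 2 libraries of fMaSC positive for the Sox10-Venus reporter (a fluorescent protein that marks cells with Sox10 activity) and for EpCAM, and 1 library of EpCAM-negative, Sox10-negative stroma. That stroma group has no replicate, so its spread in every test was taken from the other groups. All libraries of the reporter sort carry a lineage-negative mark in the table's column names, although the label of Sox10+EpCAM+ fMaSC replicate 1 leaves it out. The labels name no treatment for these groups. They give no sex or number of pooled fetuses, and they call the libraries biological replicates without saying from which animals, so the p-values measure the spread between these libraries, which may be partly technical.

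Collagens are trimers of alpha chains wound into a triple helix, and each type is built from its own set of chains. Fibrillar collagens form the rope-like fibrils of connective tissue, which FACIT collagens decorate, and type VI forms beaded filaments in the matrix around stromal cells. Type IV collagen is the sheet-forming network of the basement membrane that separates mammary epithelium from its stroma. Fibroblasts are the main source of the interstitial types, while epithelial cells make some basement membrane and hemidesmosome chains themselves.

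The values are FPKM (fragments per kilobase of transcript, scaled to the fragments mapped in the library), which are per length, so levels of different genes can be compared. Estimated from the lowest values, each library drew on 24.4 M to 37.1 M fragments, with 12790 to 13639 genes at 1 FPKM or more. The labelled cell types were checked by their markers. Summed FPKM over 8 epithelial markers (Epcam, Cdh1, keratins and claudins) was 372 to 949 in fMaSC and 2.77 to 7.39 in stroma. EpCAM defines the reporter sort, so the Epcam part of that sum was set by the sorting there. All 8 reached 1 FPKM in each fMaSC library, none in the CD24low libraries and 4 in the EpCAM-negative library. Over 12 fibroblast markers without collagens (among them Pdgfra, Dcn, Lum and Postn) the sum was 3248 to 4712 FPKM in stroma, 1325 and 1729 in CD24+CD49f+ fMaSC, and 41.2 and 60.7 in Sox10+EpCAM+ fMaSC. All 12 of these reached 1 FPKM in every stroma and CD24+CD49f+ library, 9 of 12 did so in each Sox10+EpCAM+ library, and none was at 0. The replicates of CD24+CD49f+ fMaSC stood apart from each other: the sum of 5 erythroid genes was 6870 FPKM in replicate 1 and 730.4 in replicate 2, and summed collagen FPKM was 2486 and 4277.

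The sequence upstream of a few members is shown so that the genes the results turn on can be seen beside their values. Col3a1, Col5a3 and Col6a3 represent the members with low values in Sox10+EpCAM+ fMaSC, and Col4a6 and Col17a1 those with high values in fMaSC. All are from the RefSeq promoter table (GRCm38.p6), which held 28 of the 34 members, and run 5′ to 3′ on the strand of the gene. Capitals mark matches, on either strand, to the letters of the TATA box (TATAAA), of the CCAAT box and of the GC box (GGGCGG). Each run ends at the base before the start given in that promoter table and covers 250 bases. That of Col17a1 stops earlier and covers 198, because 52 bases lay inside the gene as the deposited table bounds it. The full RefSeq bounds of Col5a3, Col6a3 and Col4a6 reach further, to 20815117, 90844001 and 141474095. The last bases of those 3 runs therefore lie inside these bounds.
Col3a1, chr1:45311288-45311537, plus strand: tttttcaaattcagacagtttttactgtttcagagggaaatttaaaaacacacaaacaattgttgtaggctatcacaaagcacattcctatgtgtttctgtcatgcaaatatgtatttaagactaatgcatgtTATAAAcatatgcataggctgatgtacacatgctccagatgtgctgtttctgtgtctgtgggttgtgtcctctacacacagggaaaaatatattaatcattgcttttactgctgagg
Col5a3, chr9:20815068-20815317, minus strand: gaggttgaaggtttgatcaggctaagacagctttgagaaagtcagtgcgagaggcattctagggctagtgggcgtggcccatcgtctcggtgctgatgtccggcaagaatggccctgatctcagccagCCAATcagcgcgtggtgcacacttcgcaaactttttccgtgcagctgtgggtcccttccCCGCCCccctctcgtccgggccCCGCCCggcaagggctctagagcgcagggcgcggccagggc
Col6a3, chr1:90843972-90844221, minus strand: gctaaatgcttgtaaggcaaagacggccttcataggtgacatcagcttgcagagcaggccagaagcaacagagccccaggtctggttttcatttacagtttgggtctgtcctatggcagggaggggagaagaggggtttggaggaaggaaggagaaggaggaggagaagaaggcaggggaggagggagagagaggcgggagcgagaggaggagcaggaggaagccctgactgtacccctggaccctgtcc
Col4a6, chrX:141474077-141474326, minus strand: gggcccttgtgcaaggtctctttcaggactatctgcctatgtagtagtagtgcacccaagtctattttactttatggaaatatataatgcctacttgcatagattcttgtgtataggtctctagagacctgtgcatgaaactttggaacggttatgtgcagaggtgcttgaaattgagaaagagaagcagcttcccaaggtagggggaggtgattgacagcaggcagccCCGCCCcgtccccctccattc
Col17a1, chr19:47692095-47692292, minus strand: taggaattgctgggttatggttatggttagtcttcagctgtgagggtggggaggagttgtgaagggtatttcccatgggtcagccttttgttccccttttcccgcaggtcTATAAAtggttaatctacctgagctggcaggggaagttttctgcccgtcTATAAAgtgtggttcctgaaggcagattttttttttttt

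Positions are counted back from the start in the promoter table, which for Col17a1 lies 52 bases beyond the end of the printed run. TATAAA began 117 bases before the start of Col3a1, and 140 and 91 bases before that of Col17a1. The Col5a3 window held CCAAT at 122 bases and the GC box letters, on the other strand, at 63 and 41 bases. The match at 41 bases lies inside the full RefSeq bounds of Col5a3. In the Col4a6 window the GC box letters stood on the other strand at 21 bases, and none of these letters was found in the window of Col6a3. Of all 32851 windows of 250 bases in the table, 33.8% held CCAAT, 32.7% GGGCGG and 12.4% TATAAA. Among the 30 windows of collagen members, 10, 17 and 4 did so. A match is a description of the letters, and nothing in these data measures binding.

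Collagen mRNA was abundant in stroma and made up very different amounts of the RNA in the fMaSC fractions. The 34 genes took 2.23% and 1.26% of the summed FPKM in CD24low stroma, and 2.10% in the EpCAM-negative library. In CD24+CD49f+ fMaSC the share was 0.330% and 1.01%, and in Sox10+EpCAM+ fMaSC it was 0.0426% and 0.0687%. Every fMaSC library was below every stroma library, and the Sox10+EpCAM+ libraries were lowest. Mitochondrial genes, which enter the same total, took 19.0% and 15.6% of it in Sox10+EpCAM+ fMaSC, 10.9% and 17.7% in CD24low stroma, 17.9% and 9.94% in CD24+CD49f+ fMaSC and 6.23% in the EpCAM-negative library, and their part in these shares was not tested. In these bulk libraries fewer cells of a type and less RNA per cell cannot be told apart.

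The mix of classes also separated the Sox10+EpCAM+ libraries from the other 5. Fibrillar chains made up 70.6% to 78.7% of collagen FPKM in the stroma libraries and 71.0% and 70.4% in CD24+CD49f+ fMaSC, but 18.5% and 20.3% in Sox10+EpCAM+ fMaSC. Basement membrane chains were 4.57% to 7.39% in stroma, 9.79% and 8.82% in CD24+CD49f+ fMaSC, and 54.7% and 53.5% in Sox10+EpCAM+ fMaSC. Type VI chains took 13.6% to 19.2% in stroma, 13.5% and 15.9% in CD24+CD49f+ fMaSC and 2.27% and 2.50% in Sox10+EpCAM+ fMaSC. FACIT chains took 2.69% to 3.24% in stroma, 5.23% and 4.37% in CD24+CD49f+ fMaSC, and 21.3% and 20.3% in Sox10+EpCAM+ fMaSC. By level, Col3a1 was the leading collagen in all 5 of the other libraries, whereas Col4a1 and Col4a2 ranked 1 and 2 in both Sox10+EpCAM+ libraries.

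**Figure D1:**
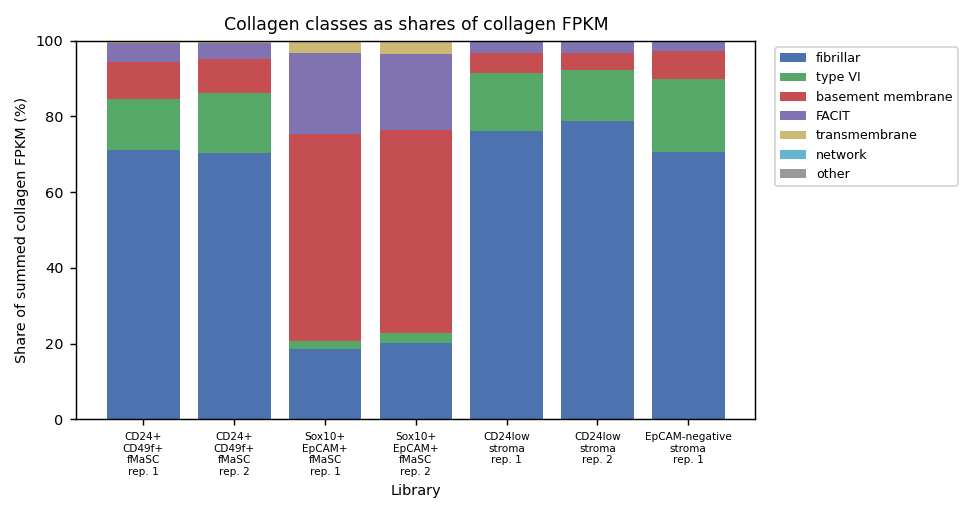
Share of summed collagen FPKM (percent, vertical axis) taken by each collagen class in each of the 7 libraries, 1 stacked bar per library. Basement membrane chains take 54.7% and 53.5% in the Sox10+EpCAM+ fMaSC libraries and at most 9.79% in the other libraries.

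Each member was tested on log2(FPKM + 1) with limma in a fit over all 14418 genes that reached 1 FPKM in at least 2 libraries, with Benjamini-Hochberg adjustment over all of them and a threshold of 0.05. Of the 34 members, 26 entered the test. Col4a6, Col17a1 and Col28a1 entered through the libraries in which they were high, so their calls are in part set by the filter. In the CD24 sort (CD24+CD49f+ fMaSC against CD24low stroma), 5 of 26 members passed, against 10.7% of all genes. Of these, 4 were higher in fMaSC (7.78% of all genes) and 1 was lower (2.94%). This count rests on single libraries: it was 13 without CD24+CD49f+ fMaSC replicate 2 (2 higher and 11 lower), 3 without Sox10+EpCAM+ fMaSC replicate 1, 1 without CD24low stroma replicate 2 and 0 without CD24low stroma replicate 1. With TMM scaling 4 were higher and 2 lower.

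In the reporter sort (Sox10+EpCAM+ fMaSC against EpCAM-negative stroma), 18 of 26 passed, against 26.1% of all genes. In fMaSC 3 were higher (12.5% of all genes) and 15 were lower (13.6%). Leaving out any library that could be left out gave 14 to 22. With all fMaSC set against all stroma and the sort as a term, 11 of 26 passed (25.1% of all genes), with 4 higher (15.6%) and 7 lower (9.5%). That count was 21 without CD24+CD49f+ fMaSC replicate 2, 5 without its replicate 1 or without the EpCAM-negative library, and 4 without either Sox10+EpCAM+ library or without CD24low stroma replicate 1. Every fMaSC library was above every stroma library for 4 members (23.3% of all genes), and below for 11 (13.7%).

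Between the fMaSC fractions, 14 of 26 members passed, against 9.99% of all genes, and all 14 were lower in Sox10+EpCAM+ than in CD24+CD49f+ fMaSC (8.04% of all genes, and 1.95% were higher). The count was 9 without Sox10+EpCAM+ fMaSC replicate 1. Between the stroma fractions none of 26 passed in limma, against 0.0277% of all genes (0.0139% higher and 0.0139% lower). At an unadjusted p under 0.05 there was 1 member, Col27a1 (limma, unadjusted p = 0.0483), against 3.02% of genes. Intervals here are wide, with 1 library against 2: in simulated data this comparison recovered 3.8% of the log2 changes of size 1. The difference between the folds of the reporter and CD24 sorts passed for 10 members, all more negative in the reporter sort, against 1.51% of all genes in either direction 1.44% in this direction and 0.0763% in the other. No member passed this test when either Sox10+EpCAM+ library or either CD24low library was left out.

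**Figure D2:**
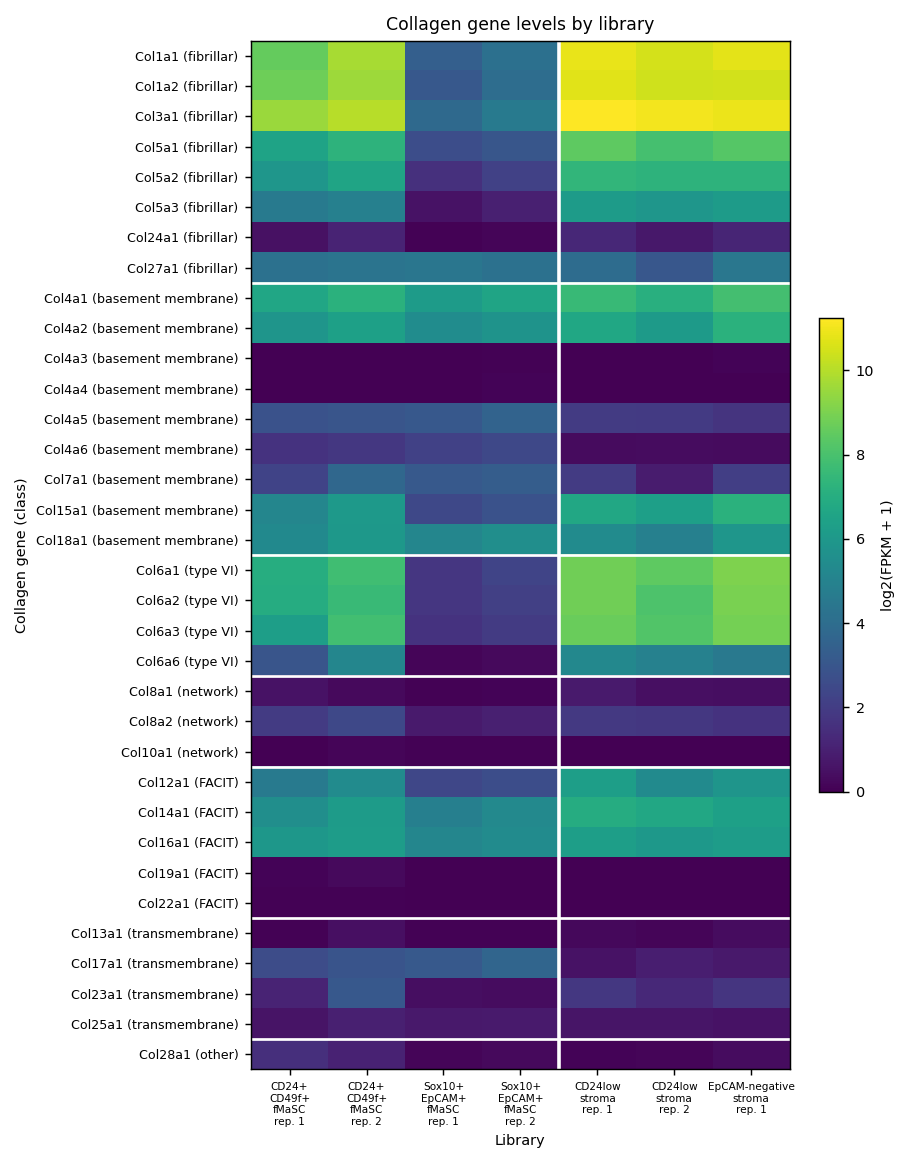
Level of each of the 34 collagen genes (rows, grouped by class) in each of the 7 libraries (columns) as log2(FPKM + 1), coloured from dark (low) to bright (high), with a white vertical line between fMaSC and stroma. Type I, III and VI chains are bright in stroma and dark in the Sox10+EpCAM+ libraries, for example Col3a1 at 2414 FPKM in CD24low stroma replicate 1 and 13.3 in Sox10+EpCAM+ fMaSC replicate 1.

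Among the fibrillar genes, 6 of 8 were lower in fMaSC in the reporter sort, against 13.6% of all genes. They were Col1a1, Col1a2, Col3a1, Col5a1, Col5a2 and Col5a3. Col1a1 (chr11:94936224-94953042, GRCm38), a chain of type I collagen, measured 386 and 883 FPKM in CD24+CD49f+ fMaSC, 9.51 and 16.9 in Sox10+EpCAM+ fMaSC, 1877 and 1442 in CD24low stroma and 1751 in the EpCAM-negative library. Each fMaSC library was below each stroma library, with CD24+CD49f+ fMaSC between Sox10+EpCAM+ fMaSC and stroma. Its log2 fold change in the reporter sort was -7.00 (SE 0.61, limma adjusted p = 0.000899), and in the CD24 sort -1.49 (SE 0.50, adjusted p = 0.129), which did not pass. Col1a2 (chr6:4504814-4541543), its partner chain, measured 438 and 772, then 7.49 and 15.0, then 1695 and 1395, and 1400.2 FPKM in that order. Its fold was -6.91 in the reporter sort (SE 0.55, adjusted p = 0.000648).

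Col3a1 (chr1:45311538-45349706) encodes type III collagen, which forms thin fibrils together with type I. It measured 749 and 1058 FPKM in CD24+CD49f+ fMaSC, 13.3 and 23.9 in Sox10+EpCAM+ fMaSC, 2414 and 2132 in CD24low stroma and 1916 in the EpCAM-negative library. Its fold was -6.66 in the reporter sort (SE 0.50, limma adjusted p = 0.000548) and -1.35 in the CD24 sort (SE 0.41, adjusted p = 0.0978). Again each fMaSC library was below each stroma library and the Sox10+EpCAM+ libraries were lowest.

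Type V collagen nucleates fibrils and sets their width. Col5a1 (chr2:27886425-28039514) measured 90.4 and 153 FPKM in CD24+CD49f+ fMaSC, 5.27 and 7.12 in Sox10+EpCAM+ fMaSC, 349 and 243 in CD24low stroma and 306 in the EpCAM-negative library, with a reporter-sort fold of -5.43 (SE 0.42, limma adjusted p = 0.000591). Col5a2 (chr1:45374321-45503282) measured 59.0 and 94.2, 1.93 and 3.47, 169.5 and 153, and 153 FPKM in that order, with a fold of -5.41 (SE 0.38, adjusted p = 0.000481). For both genes each fMaSC library was below each stroma library. Col5a3 (chr9:20770050-20815067) measured 23.8 and 28.4, 0.476 and 1.01, 71.6 and 59.0, and 70.0 FPKM. It was the only fibrillar gene to pass in the CD24 sort as well, at -1.29 (SE 0.22, adjusted p = 0.0194), beside -5.36 in the reporter sort (SE 0.27, adjusted p = 0.000276). The CD24-sort call was lost in 7 of 16 alternative fits, among them those without Sox10+EpCAM+ fMaSC replicate 1 or either CD24low library, with adjusted p from 0.0116 to 0.149.

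All 6 of these genes also passed, lower in fMaSC, when the sorts were pooled (9.5% of all genes). Their pooled log2 fold changes were -2.82 (Col5a2) to -3.69 (Col1a1), with limma adjusted p of 0.0363 (Col5a3) to 0.0499 (Col1a2). The pooled fit gives 1 fold for both sorts, although the folds of these genes differed between the sorts. Each pooled fold lies between those of the sorts, and its SE takes in that difference (1.09 for Col1a1). None of these 6 pooled calls was kept in all alternative fits. Between the fMaSC fractions the 6 were lower in Sox10+EpCAM+ fMaSC by -3.97 (Col5a3) to -5.64 (Col1a2), with adjusted p of 0.000945 (Col5a3) to 0.003 (Col1a1), and these calls held in every alternative fit run. The other 2 fibrillar genes passed in no comparison. Col27a1 measured 17.4 and 19.2 FPKM in CD24+CD49f+ fMaSC and 20.1 and 17.0 in Sox10+EpCAM+ fMaSC. In CD24low stroma it measured 14.6 and 7.29, and 20.8 in the EpCAM-negative library, so its groups overlapped. Col24a1, a chain found in type I fibrils, measured 0.413 and 1.16 FPKM in CD24+CD49f+ fMaSC, 0.0478 and 0.125 in Sox10+EpCAM+ fMaSC, 1.41 and 0.649 in CD24low stroma and 1.24 in the EpCAM-negative library, with fMaSC and stroma overlapping.

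**Figure D3:**
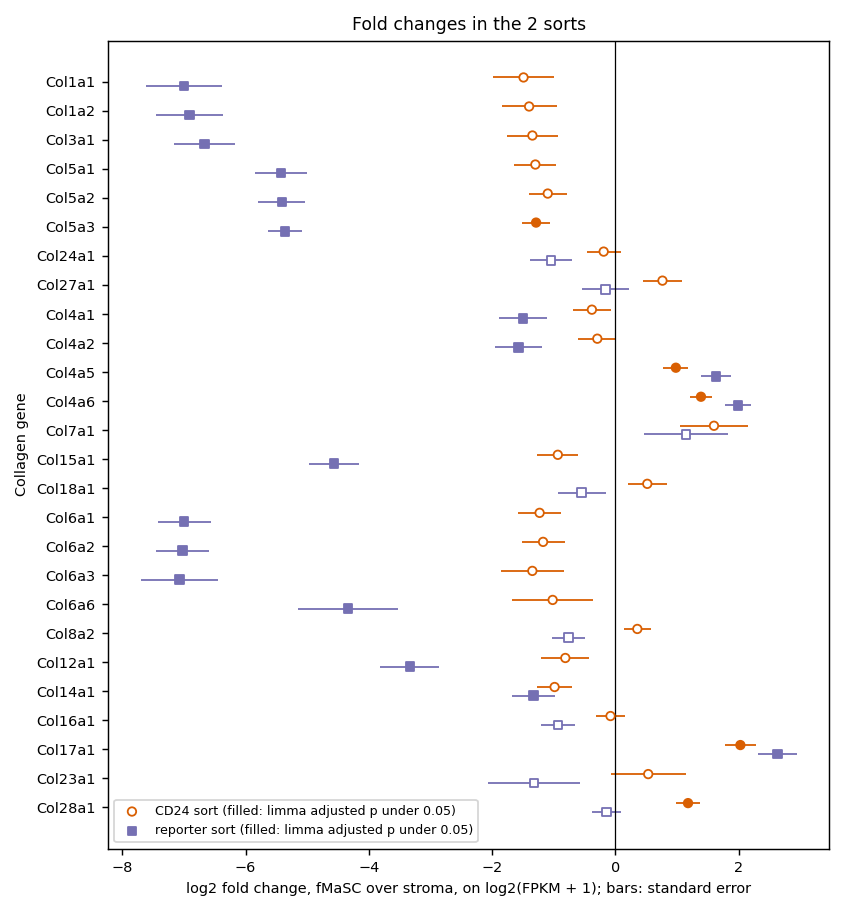
Log2 fold change of fMaSC over stroma for the 26 tested collagen genes in the CD24 sort (circles) and the reporter sort (squares), on log2(FPKM + 1), with bars of 1 standard error and filled symbols where the limma adjusted p was under 0.05. The type I, III and V genes and Col6a1, Col6a2 and Col6a3 lie between -7.08 and -5.36 in the reporter sort and between -1.49 and -1.10 in the CD24 sort.

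All 4 type VI genes passed, lower in fMaSC, in the reporter sort, where 13.6% of all genes did so. None of the 4 did so in the CD24 sort or pooled, where 2.94% and 9.5% of all genes did. With so few genes, none passing is near those shares. Their pooled folds were -2.35 (Col6a6) to -3.64 (Col6a3), with limma adjusted p of 0.0556 (Col6a3) to 0.0678 (Col6a6). That fit gives 1 fold for both sorts, so its SEs, 0.78 (Col6a6) to 1.13 (Col6a3), take in any difference between them. Type VI trimers join the products of Col6a1, Col6a2 and a further chain such as that of Col6a3. Col6a1 (chr10:76708792-76726168) measured 128 and 223 FPKM in CD24+CD49f+ fMaSC, 2.47 and 3.95 in Sox10+EpCAM+ fMaSC, 451 and 349.8 in CD24low stroma and 528 in the EpCAM-negative library. Col6a2 (chr10:76595762-76623630) measured 122 and 194, 2.47 and 3.36, 444 and 273, and 506 FPKM in that order. The 2 genes had the same order of groups, with no overlap between fMaSC and stroma. Col6a3 (chr1:90765923-90843971) measured 78.7 and 230.3, 2.10 and 2.93, 413 and 288, and 469.7 FPKM. Of the 3 main chains it differed most between the CD24+CD49f+ replicates.

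The reporter-sort log2 fold changes were -7.00 for Col6a1 (SE 0.43), -7.03 for Col6a2 (SE 0.43) and -7.08 for Col6a3 (SE 0.63), with limma adjusted p of 0.000341, 0.000341 and 0.00093. In the CD24 sort they were -1.23, -1.17 and -1.35, with adjusted p of 0.0834, 0.093 and 0.168. Col6a6, an alternative to Col6a3, measured 6.82 and 35.2 FPKM in CD24+CD49f+ fMaSC, 0.114 and 0.216 in Sox10+EpCAM+ fMaSC, 36.9 and 29.7 in CD24low stroma and 22.6 in the EpCAM-negative library. Its second CD24+CD49f+ library lay within the stroma range. Its reporter-sort fold was -4.34 (SE 0.81, limma adjusted p = 0.0116), a call lost without a filter and without Sox10+EpCAM+ fMaSC replicate 1. Between the fMaSC fractions Col6a1, Col6a2, Col6a3 and Col6a6 were lower in Sox10+EpCAM+ fMaSC by -5.36, -5.31, -5.28 and -3.85, with limma adjusted p of 0.00123, 0.00123, 0.00331 and 0.0204. The Col6a6 call was lost there without a filter, with only the groups compared, and without either Sox10+EpCAM+ or either CD24low library.

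For 9 of these fibrillar and type VI genes the reporter-sort fold was more negative than the CD24-sort fold by its own test. Of all genes, 1.44% passed in this direction. The difference in log2 fold was -4.08 for Col5a3 (SE 0.35, limma adjusted p = 0.0154), -5.85 for Col6a2 (SE 0.55, adjusted p = 0.0163) and -5.76 for Col6a1 (SE 0.55, adjusted p = 0.0166). For Col1a1, Col1a2 and Col3a1 it was -5.51, -5.51 and -5.32, with adjusted p of 0.0369, 0.0308 and 0.0266. Because FPKM near 1 is compressed by the added 1, the folds of genes near that level in Sox10+EpCAM+ fMaSC are understated.

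Fibroblast markers moved with these results. As a percentage of the stroma mean of the same sort, the median of the 12 fibroblast markers was 29.7% and 39.3% in CD24+CD49f+ fMaSC and 1.21% and 1.61% in Sox10+EpCAM+ fMaSC. For the 7 fibrillar genes with at least 1 FPKM in every stroma library the medians were 33.0% and 51.7%, and 0.696% and 1.44%. For the 4 type VI genes they were 27.2% and 60.7%, and 0.479% and 0.706%. The collagen medians lay within the range of the single fibroblast markers in CD24+CD49f+ fMaSC, which ran from 17.1% to 42.4% in replicate 1 and from 13.2% to 102% in replicate 2. In Sox10+EpCAM+ fMaSC the single markers ran from 0.561% to 10.1% and from 0.661% to 10.5%, and the type VI median of replicate 1 (0.479%) lay below that range. The part of fibroblast RNA in the collagen differences was not tested.

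**Figure D4:**
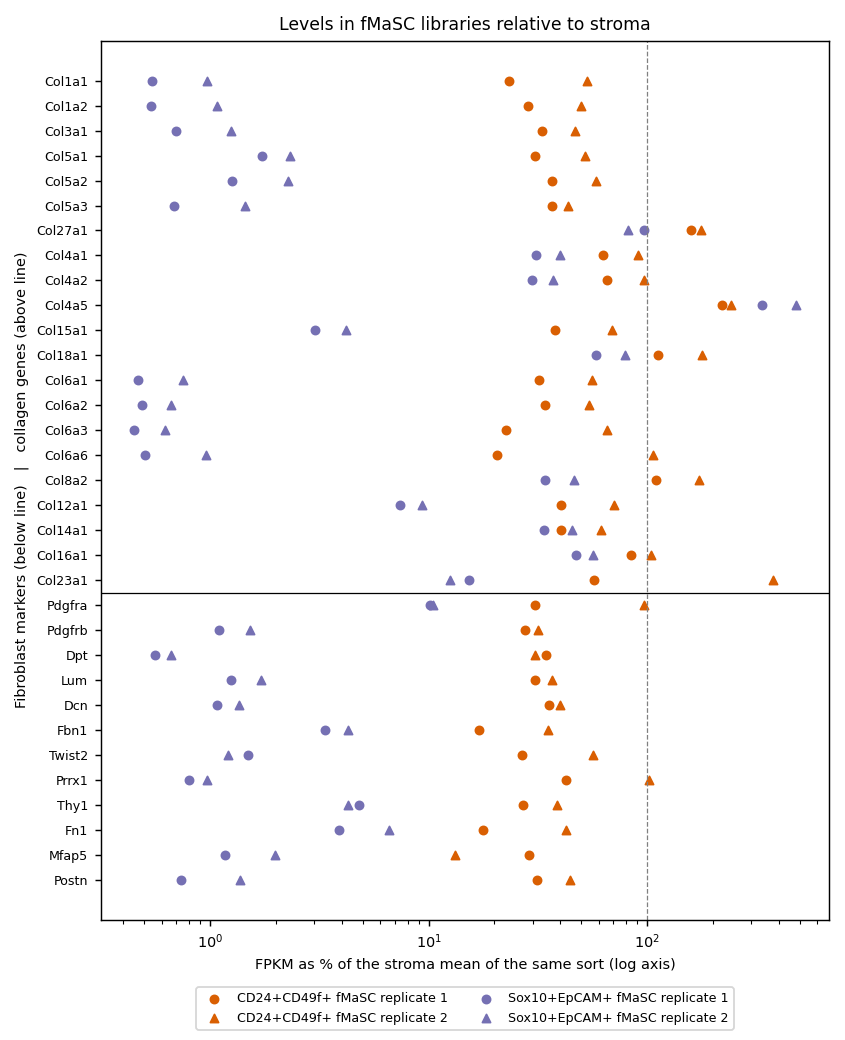
FPKM of each gene in each fMaSC library as a percentage of the stroma mean of the same sort (log axis), for the 21 collagen genes with at least 1 FPKM in every stroma library (above the line) and 12 fibroblast markers (below it). The type I, III and V genes lie at 23.3% to 58.4% in CD24+CD49f+ fMaSC and 0.535% to 2.33% in Sox10+EpCAM+ fMaSC, whereas Col4a5 lies at 221% to 481% and Col4a1 at 30.9% to 90.9%.

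The basement membrane class split into chains that were higher in fMaSC and chains that were not. In the reporter sort 2 of its 7 tested genes were higher in fMaSC (12.5% of all genes) and 3 were lower (13.6%). In the CD24 sort 2 were higher (7.78% of all genes) and none lower (2.94%). Its other 2 genes, Col4a3 and Col4a4, did not reach the filter. Col4a5 (chrX:141475385-141689234) and Col4a6 (chrX:141165403-141474076) encode type IV chains that assemble together under some epithelia and smooth muscle. The genes lie head to head, 1308 bases apart, on opposite strands.

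Col4a6 measured 2.11 and 2.53 FPKM in CD24+CD49f+ fMaSC, 3.46 and 4.45 in Sox10+EpCAM+ fMaSC, 0.256 and 0.278 in CD24low stroma and 0.244 in the EpCAM-negative library. All 4 fMaSC libraries were above all 3 stroma libraries. Its log2 fold change was 1.39 in the CD24 sort (SE 0.17, limma adjusted p = 0.00634), 1.99 in the reporter sort (SE 0.21, adjusted p = 0.0017) and 1.63 pooled (SE 0.18, adjusted p = 0.00149). The CD24-sort call was lost under TPM scaling (limma adjusted p = 0.0691) and without either CD24low library. Its pooled and reporter-sort calls held in every alternative fit run. Col4a5 measured 6.19 and 6.81 FPKM in CD24+CD49f+ fMaSC, 7.64 and 10.9 in Sox10+EpCAM+ fMaSC, 2.85 and 2.75 in CD24low stroma and 2.27 in the EpCAM-negative library. These groups did not overlap either. Its fold was 0.98 in the CD24 sort (SE 0.20, adjusted p = 0.033), 1.63 in the reporter sort (SE 0.25, adjusted p = 0.00565) and 1.24 pooled (SE 0.20, adjusted p = 0.0065). The pooled and reporter-sort calls were lost under TPM scaling, with adjusted p of 0.133 and 0.269. The CD24-sort call was lost in 8 of 16 alternative fits, including those without CD24+CD49f+ fMaSC replicate 2, either Sox10+EpCAM+ library or either CD24low library.

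Col4a1 and Col4a2 encode the chains of the common type IV network and overlap by 22 bases at their starts on chr8, at 11198423 to 11312826 on the minus strand and 11312805 to 11449287 on the plus strand. Whether the counting used strand is not given in the sources used here, so reads in that overlap cannot be assigned with certainty. Col4a1 measured 100.5 and 146 FPKM in CD24+CD49f+ fMaSC, 71.8 and 92.3 in Sox10+EpCAM+ fMaSC, 187 and 133 in CD24low stroma and 232 in the EpCAM-negative library. The CD24 sort overlapped, since CD24+CD49f+ fMaSC replicate 2 was above CD24low stroma replicate 2. Col4a2 measured 56.5 and 83.3, 42.8 and 53.9, 103 and 69.1, and 145 FPKM in the same order. In the reporter sort they were lower in fMaSC, by -1.50 (SE 0.38, limma adjusted p = 0.0346) and -1.57 (SE 0.38, adjusted p = 0.0285). Those calls were lost without a filter, without either Sox10+EpCAM+ library and, for Col4a1, without either CD24low library. In the CD24 sort the folds were -0.38 (SE 0.31, adjusted p = 0.507) and -0.29 (SE 0.31, adjusted p = 0.602).

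The endothelium, which also makes type IV collagen, was represented by 8 markers summing to 27.5 and 28.7 FPKM in CD24+CD49f+ fMaSC, 4.76 and 5.14 in Sox10+EpCAM+ fMaSC and 19.2 to 32.7 in stroma. In CD24+CD49f+ fMaSC 7 of 8 reached 1 FPKM, in Sox10+EpCAM+ fMaSC 1 and 2 of 8. In stroma 6 to 7 of 8 did so, and none was at 0. The similar sums hide single markers that went both ways. In CD24+CD49f+ fMaSC, Cldn5, Tie1 and Kdr were above every stroma library, Tek, Esam and Emcn were below, and Pecam1 and Cdh5 overlapped. Cldn5 was at 9.96 and 7.83 FPKM there and 1.30 to 3.29 in stroma, Tek at 1.99 and 3.11 and 5.45 to 12.6. For 6 pericyte markers the sums were 75.9 and 64.6, 40.1 and 46.8, and 127 to 150.2 FPKM, with 6, 2 and 6 of 6 at 1 FPKM and none at 0. Mcam made up 33.6 and 37.5 FPKM of the Sox10+EpCAM+ sums, while Rgs5 was at 0.289 and 0.685 there and 35.1 to 56.2 in stroma. The part of vascular RNA in the Col4a1, Col4a2, Col15a1 and Col18a1 values was not tested.

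Col15a1 (chr4:47208161-47313167) encodes a collagen that links basement membranes to the fibrils beside them. It measured 35.0 and 63.9 FPKM in CD24+CD49f+ fMaSC, 4.39 and 6.07 in Sox10+EpCAM+ fMaSC, 104 and 80.4 in CD24low stroma and 145 in the EpCAM-negative library. It followed the fibrillar pattern, with a fold of -4.57 in the reporter sort (SE 0.41, limma adjusted p = 0.000961), -0.94 in the CD24 sort (SE 0.33, adjusted p = 0.147) and a difference between the folds of -3.63 (SE 0.53, adjusted p = 0.0374). Between the fMaSC fractions it was lower in Sox10+EpCAM+ by -2.97 (SE 0.33, adjusted p = 0.00515, and 0.0635 without Sox10+EpCAM+ fMaSC replicate 1). Col18a1, its relative and the source of endostatin, measured 39.2 and 62.3 FPKM in CD24+CD49f+ fMaSC, 34.5 and 46.6 in Sox10+EpCAM+ fMaSC, 41.3 and 28.5 in CD24low stroma and 59.1 in the EpCAM-negative library. It passed in no comparison and its groups overlapped. Col7a1 (chr9:108953586-108984875), the anchoring fibril collagen beneath stratified epithelium, measured 3.82 and 12.5 FPKM in CD24+CD49f+ fMaSC, 7.82 and 9.04 in Sox10+EpCAM+ fMaSC, 2.89 and 0.820 in CD24low stroma and 3.27 in the EpCAM-negative library. Each fMaSC library was above each stroma library. It passed in the pooled comparison alone, at 1.42 (SE 0.41, adjusted p = 0.0466), and that call was lost in 9 of 15 alternative fits, with each Sox10+EpCAM+ or stroma library left out among them and adjusted p up to 0.272.

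Among the 3 tested FACIT genes none passed in the CD24 sort (10.7% of all genes). In the reporter sort 2 were lower in fMaSC (13.6% of all genes). Col12a1 (chr9:79598991-79718831), a fibril-surface collagen, measured 23.9 and 41.9 FPKM in CD24+CD49f+ fMaSC, 4.20 and 5.30 in Sox10+EpCAM+ fMaSC, 78.2 and 40.6 in CD24low stroma and 56.8 in the EpCAM-negative library. CD24+CD49f+ fMaSC replicate 2 lay just above CD24low stroma replicate 2. Its reporter-sort fold was -3.34 (SE 0.48, limma adjusted p = 0.00463). It was lower in Sox10+EpCAM+ than in CD24+CD49f+ fMaSC by -2.51 (SE 0.39, limma adjusted p = 0.0151). The call between the fMaSC fractions was lost without a filter and without either Sox10+EpCAM+ library. Col14a1 (chr15:55307750-55520803), another fibril-associated collagen, measured 46.0 and 70.7 FPKM in CD24+CD49f+ fMaSC, 28.1 and 37.8 in Sox10+EpCAM+ fMaSC, 124 and 105 in CD24low stroma and 83.6 in the EpCAM-negative library, with no overlap between fMaSC and stroma. Its fold was -1.33 in the reporter sort (SE 0.35, adjusted p = 0.0376) and -1.13 pooled (SE 0.22, adjusted p = 0.0132). The reporter-sort call was lost without a filter and without either Sox10+EpCAM+ or either CD24low library. The pooled call was lost without the EpCAM-negative library (limma adjusted p = 0.0847).

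Sox10+EpCAM+ fMaSC held Col14a1 at 33.6% and 45.2% of the EpCAM-negative level, and Col16a1, a FACIT found near basement membranes, at 47.3% and 56.5%. For Col12a1 these shares were 7.39% and 9.34%, and for Col1a1 0.543% and 0.963%. Col16a1 passed in no comparison. It measured 59.9 and 74.1 FPKM in CD24+CD49f+ fMaSC, 35.0 and 41.8 in Sox10+EpCAM+ fMaSC, 78.8 and 63.1 in CD24low stroma and 73.9 in the EpCAM-negative library, so that Sox10+EpCAM+ fMaSC was below all other libraries. Its reporter-sort fold was -0.93 (SE 0.28, limma adjusted p = 0.0564).

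Of the transmembrane genes Col17a1 had the clearest epithelial pattern. Col17a1 (chr19:47646344-47692094) encodes BP180, a hemidesmosome protein that ties basal epithelial cells to the basement membrane. It measured 5.09 and 6.60 FPKM in CD24+CD49f+ fMaSC, 7.91 and 11.7 in Sox10+EpCAM+ fMaSC, 0.456 and 0.919 in CD24low stroma and 0.720 in the EpCAM-negative library. All 4 fMaSC libraries were above all stroma libraries. The log2 fold change was 2.03 in the CD24 sort (SE 0.25, limma adjusted p = 0.00634), 2.63 in the reporter sort (SE 0.31, adjusted p = 0.00238) and 2.27 pooled (SE 0.22, adjusted p = 0.000924). The pooled and reporter-sort calls held in every alternative fit run. In the CD24 sort the call was lost without CD24low stroma replicate 1 and under TPM scaling, with adjusted p up to 0.0526. Col23a1, another membrane-bound collagen, measured 1.14 and 7.54 FPKM in CD24+CD49f+ fMaSC, 0.352 and 0.289 in Sox10+EpCAM+ fMaSC, 2.55 and 1.47 in CD24low stroma and 2.30 in the EpCAM-negative library. It passed in no comparison, and its CD24+CD49f+ replicates lay on either side of the stroma.

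Col28a1 (chr6:7997808-8192617), a collagen known from peripheral nerve, was highest in CD24+CD49f+ fMaSC. It measured 1.84 and 1.10 FPKM there, 0.115 and 0.218 in Sox10+EpCAM+ fMaSC, 0.0652 and 0.0983 in CD24low stroma and 0.287 in the EpCAM-negative library. Only the CD24+CD49f+ libraries reached 1 FPKM. Its fold was 1.18 in the CD24 sort (SE 0.19, limma adjusted p = 0.0147) and -1.07 between the fMaSC fractions (SE 0.19, adjusted p = 0.0226). The CD24-sort call was lost under quantile scaling and without either CD24low library. That between the fMaSC fractions was lost in 7 of 13 alternative fits. These were without a filter, under quantile scaling, with only the groups compared, and without either Sox10+EpCAM+ or either CD24low library. Schwann cell and melanoblast markers moved with it. Their 7 genes summed to 163 and 87.8 FPKM in CD24+CD49f+ fMaSC, 21.9 and 34.1 in Sox10+EpCAM+ fMaSC, 11.7 and 9.11 in CD24low stroma and 1.72 in the EpCAM-negative library. In these libraries 6 and 5, 5 and 5, 5 and 4, and 0 of the 7 reached 1 FPKM. Cdh19 and Tyrp1 were at 0 in the EpCAM-negative library, and no other marker of this list was at 0 in any library. Their part in the Col28a1 result was not tested.

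Of the network collagens, Col8a2 (chr4:126286793-126314330), a chain of the sheet-forming type VIII, measured 2.82 and 4.45 FPKM in CD24+CD49f+ fMaSC, 0.737 and 0.996 in Sox10+EpCAM+ fMaSC, 2.59 and 2.55 in CD24low stroma and 2.16 in the EpCAM-negative library. The CD24+CD49f+ libraries were the highest and the Sox10+EpCAM+ libraries the lowest. It was lower in Sox10+EpCAM+ than in CD24+CD49f+ fMaSC by -1.29 (SE 0.21, limma adjusted p = 0.0183). That call was lost without a filter, under TPM scaling, and without either Sox10+EpCAM+ or either CD24low library. The 8 members that were not tested stayed under 1 FPKM in all 7 libraries. Col25a1, a neuronal membrane collagen, was between 0.462 and 0.957 FPKM, Col8a1 between 0.0473 and 0.743, Col13a1 between 0.0471 and 0.395, and Col19a1 between 0.00633 and 0.231. Col10a1, the collagen of hypertrophic cartilage, ran from 0 to 0.108 FPKM. The kidney and lung type IV chains Col4a3 and Col4a4 reached 0.0792 and 0.0752 FPKM, and Col22a1 reached 0.0551. On a 2 kb transcript 1 fragment is worth 0.0135 to 0.0205 FPKM, so the lowest of these values rest on few fragments and a 0 does not show absence.

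Chains that share a trimer had similar proportions across fractions whose levels differed widely. The ratio of Col1a1 to Col1a2 lay between 0.881 and 1.27 over the 7 libraries, and that of Col6a1 to Col6a2 between 1.00 and 1.28. Col4a1 to Col4a2 stayed between 1.60 and 1.93, Col6a3 to Col6a1 between 0.616 and 1.03, and Col5a1 to Col5a2 between 1.53 and 2.74. The exception was the pair Col4a5 to Col4a6, chosen after its values were seen. Its ratio was 2.94 and 2.69 in CD24+CD49f+ fMaSC, 2.21 and 2.46 in Sox10+EpCAM+ fMaSC, 11.2 and 9.88 in CD24low stroma and 9.30 in the EpCAM-negative library, with no overlap between fMaSC and stroma. No test was made of these ratios.

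**Figure D5:**
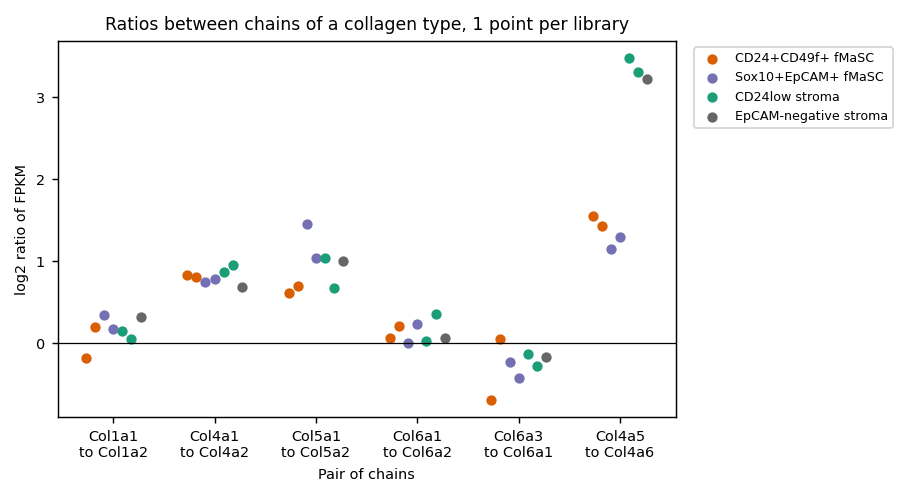
Log2 ratio of FPKM between chains of a collagen type (vertical axis), 1 point per library, coloured by group. The Col4a5 to Col4a6 ratio is 9.30 to 11.2 in stroma and 2.21 to 2.94 in fMaSC, while the Col1a1 to Col1a2 ratio spans 0.881 to 1.27.

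Genes that fold, cut, crosslink or bind collagen were counted in the same fits, in which 7.78% of all genes were higher and 2.94% lower in fMaSC in the CD24 sort, 12.5% and 13.6% in the reporter sort, and 15.6% and 9.5% pooled. Of 20 genes for folding and hydroxylation, none was higher and 3 were lower in fMaSC in the CD24 sort, 1 was higher and 13 lower in the reporter sort, and 1 was higher and 13 lower pooled. P4ha2, a subunit of prolyl 4-hydroxylase, measured 12.8 and 20.8 FPKM in CD24+CD49f+ fMaSC, 2.75 and 4.26 in Sox10+EpCAM+ fMaSC, 49.8 and 43.1 in CD24low stroma and 34.2 in the EpCAM-negative library, with a pooled fold of -2.06 (SE 0.36, limma adjusted p = 0.00894). The pooled folds of Creb3l1, P4ha3, Fkbp10, P3h1 and Crtap were -2.47, -1.52, -1.74, -1.47 and -1.42. The gene higher in fMaSC in the reporter sort was Plod2, a lysyl hydroxylase, at 0.97 (SE 0.21, adjusted p = 0.0195), and it did not pass pooled (0.58, adjusted p = 0.0555). It measured 23.1 and 27.0 FPKM in CD24+CD49f+ fMaSC, 36.2 and 38.7 in Sox10+EpCAM+ fMaSC, 20.4 and 19.5 in CD24low stroma and 18.6 in the EpCAM-negative library. P3h2, a prolyl 3-hydroxylase known to act on type IV collagen, was the gene higher in the pooled comparison, at 0.87 (SE 0.25, adjusted p = 0.0469). It measured 4.76 and 8.57 FPKM in CD24+CD49f+ fMaSC, 7.97 and 11.2 in Sox10+EpCAM+ fMaSC, 4.51 and 3.06 in CD24low stroma and 3.59 in the EpCAM-negative library. Each fMaSC library was above each stroma library, the nearest at 4.76 against 4.51. Calls for genes that fold, cut, crosslink or bind collagen were not followed through the alternative fits.

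Of 13 tested genes for propeptide cleavage and crosslinking, 1 was higher and 5 lower in fMaSC in the CD24 sort, 1 and 11 in the reporter sort, and 1 and 10 pooled, beside the same shares of all genes (7.78% and 2.94%, 12.5% and 13.6%, 15.6% and 9.5%). Lox, the lysyl oxidase that crosslinks fibrils, measured 32.2 and 72.0 FPKM in CD24+CD49f+ fMaSC, 0.535 and 0.778 in Sox10+EpCAM+ fMaSC, 143 and 114 in CD24low stroma and 111 in the EpCAM-negative library, with a pooled fold of -3.26 (SE 0.92, limma adjusted p = 0.0424). Pcolce, the enhancer of procollagen C-proteinase, and the oxidases Loxl1 and Loxl2 had pooled folds of -3.58, -2.96 and -2.60, and their folds also differed between the sorts, as did that of Lox. Adamts2, a procollagen N-proteinase, and the collagen-binding Sparc were at -2.46 and -2.32. Adamts3, a relative of Adamts2, was higher in fMaSC, at 1.47 and 2.79 FPKM in CD24+CD49f+ fMaSC, 4.14 and 4.10 in Sox10+EpCAM+ fMaSC and 0.372 to 0.455 in stroma, with a pooled fold of 1.40 (SE 0.22, adjusted p = 0.00667). It reached 1 FPKM in fMaSC libraries alone, so its call is in part set by the filter.

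Of 9 tested collagen receptors, 2 were higher and 2 lower in fMaSC in the CD24 sort, 2 and 5 in the reporter sort, and 2 and 4 pooled, where the shares of all genes were again 7.78% and 2.94%, 12.5% and 13.6%, and 15.6% and 9.5%. Ddr1, the epithelial discoidin receptor for collagen, measured 24.3 and 25.3 FPKM in CD24+CD49f+ fMaSC, 31.6 and 36.5 in Sox10+EpCAM+ fMaSC, 8.71 and 7.24 in CD24low stroma and 8.15 in the EpCAM-negative library, with a pooled fold of 1.69 (SE 0.15, limma adjusted p = 0.00071). Itga2, an integrin subunit for collagen, was the other receptor higher in fMaSC, at 1.13 (SE 0.18, adjusted p = 0.00625), and it entered the test through fMaSC libraries alone. Itga1, the related subunit, measured 1.63 and 1.83 FPKM in CD24+CD49f+ fMaSC, 0.115 and 0.157 in Sox10+EpCAM+ fMaSC, 6.75 and 4.90 in CD24low stroma and 7.96 in the EpCAM-negative library, with a pooled fold of -1.98 (SE 0.34, adjusted p = 0.00913). Mrc2, a receptor for collagen uptake, Antxr2 and Itga11 were also lower, at -1.91, -1.37 and -0.55. Itga11 entered the test through the CD24low libraries alone.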

How the data were processed

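The authors made TruSeq libraries and sequenced them as 100-base paired reads, per the labels' protocols. STAR, Cufflinks and the build GRCm38/mm10 are named in the submitters' processing notes, and versions are not given in the sources used here. The deposited values are FPKM, 1 column per library, and no column was left out. The 8 added sequences in the table were not used. The members and gene lists were chosen with earlier results of these data known.

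Values were tested on log2(FPKM + 1), which understates changes of low genes, with limma 3.58.1 in R 4.3.3 (two-sided, 4 group means, empirical Bayes with trend). The pooled comparison fitted cell type plus sort. Genes needed 1 FPKM in 2 libraries. FPKM are not counts, so no count model was run. Depth was estimated from values near whole fragments: 76.8% to 83.3% of low values lay within 0.15 of a whole number, where chance gives 30%. Alternatives tried were other pseudocounts, filters, scalings and groups, no trend, and leaving out each library.

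In simulated data over 14418 genes, changes of 1 on the log2 scale were recovered in 22.8% (CD24 sort), 4.6% (reporter sort), 70% (pooled), 25.8% (fMaSC fractions), 3.8% (stroma fractions) and 0% (difference between the folds) of genes, and changes of 2 in 89.4%, 79.4%, 95.8%, 92.8%, 79.2% and 19.2%. In the pooled simulation both fMaSC groups got the same change, and the noise was the spread within groups. Its recovery therefore does not cover genes whose folds differ between the sorts. Each simulated run changed only a small share of the genes. In the CD24 sort, the reporter sort, the pooled comparison and the fMaSC fractions, larger shares passed in the data. Adjustment over all genes was therefore stricter in those simulations, and their recoveries do not carry over directly. All 34 members are named, tested members by library and others by range. From each list of collagen-acting genes, up to 6 called genes with the largest pooled folds, and any in the opposite direction, are named. Other marker lists were also summed per library. Adipocyte lineage (6 genes) ran from 19.0 to 567 FPKM in fMaSC and 779 to 1284 in stroma, mast cell and leukocyte (6) from 4.92 to 24.6 and 16.1 to 213, epidermis (5) from 3.91 to 8.40 and 1.40 to 1.95, skeletal muscle (4) from 0.300 to 5.22 and 7.98 to 11.4, and chondrocyte (4) from 14.2 to 28.1 and 14.0 to 14.6. Sox9 made up most of the chondrocyte sums, at 13.2 to 26.4 in fMaSC and 13.1 to 14.0 in stroma. Col2a1 was at 0.906 to 2.15 in fMaSC and 0.0511 to 0.0905 in stroma, Acan at 0.0279 to 0.168 and 0.500 to 0.912. Matn1 reached 0.0196 at most. Erythroid genes (5) ran from 85.3 to 6870 in fMaSC and 91.0 to 218 in stroma. Figures were drawn with matplotlib 3.10.9, from tables made in Python 3.11.15 with pandas 2.3.3.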

Additional observations from a re-analysis of the deposited data

Results flagged for a closer look

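For 10 collagen genes the fold of fMaSC over stroma differed between the sorts by a test of the difference itself. That test was made in limma with adjustment over all genes, of which 1.51% passed. The reporter-sort log2 fold minus the CD24-sort log2 fold was -5.51 for Col1a1, -5.51 for Col1a2, -5.32 for Col3a1, -4.13 for Col5a1, -4.31 for Col5a2 and -4.08 for Col5a3. It was -5.76 for Col6a1, -5.85 for Col6a2, -5.73 for Col6a3 and -3.63 for Col15a1. No difference passed without either Sox10+EpCAM+ or either CD24low library. For these 10 genes the log2 difference between the stroma fractions lay between -0.24 (Col3a1) and 0.66 (Col15a1), and none passed the test, while that between the fMaSC fractions lay between -5.64 (Col1a2) and -2.97 (Col15a1).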

How the results depend on the processing

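No collagen call changed direction in any alternative fit. The reporter-sort count (18 members) stayed at 14 to 22 and that between the stroma fractions at 0. Other counts moved. In the CD24 sort, where 5 members passed, 3 did without a filter, 1 under TPM scaling and 3 with only the groups compared, and leaving out a library gave 0 to 13. In the pooled comparison, with 11, the counts were 5 with a pseudocount of 0.1, 7 with 0.5, 4 without a filter, 6 with a filter on the mean and 5 under TPM scaling, and 4 to 21 with a library left out. Between the fMaSC fractions, with 14, leaving out a library gave 9 to 15. For the difference between the folds, with 10, there were 3 without a filter, 5 under TPM scaling, 1 under quantile scaling, and 0 to 14 with a library left out. The cause was not tested. Of the calls, 13 of 18 were kept in all alternatives in the reporter sort, 9 of 14 between the fMaSC fractions, 2 of 11 pooled (Col4a6 and Col17a1), and 0 of 5 and 0 of 10 in the CD24 sort and the difference.

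TPM scaling moved the median log2 fold of all genes from 0.13 to -0.12 in the CD24 sort, 0.09 to -0.63 in the reporter sort, 0.12 to -0.32 pooled, -0.01 to -0.23 between the fMaSC fractions, -0.01 to 0.24 between the stroma fractions and -0.03 to -0.51 for the difference. Relative to all genes the median of the tested members was -1.63 in the reporter sort and -1.73 under TPM. Of all genes called, the share higher moved from 72.6% to 61.5% (TMM) and 52.6% (quantile) in the CD24 sort, 47.9% to 26.8% (TPM) in the reporter sort, 62.2% to 49.4% (TPM), 49.5% (TMM) and 44.7% (quantile) pooled, 19.5% to 2.45% (TPM) and 39.2% (quantile) between the fMaSC fractions, and 5.05% to 15.3% (TPM) for the difference. Without the EpCAM-negative library the reporter sort, the stroma fractions and the difference could not be fitted. No paired analysis was possible because the labels give the libraries no replicate numbers, and those used here only name the libraries in the order of the samples. With 2 libraries a group and 1 stroma library, the number of libraries limits what single comparisons can show, and depth limits the members under 1 FPKM.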
